A study of Mus musculus with 24 samples.

Results

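The RAS and RAF genes described here are 8 mouse genes, which were chosen by symbol as members of the RAS-MAPK cascade. Hras and Nras encode RAS GTPases, Rras and Rras2 encode R-RAS GTPases, Araf and Braf encode RAF kinases, and Map2k1 and Map2k2 encode the MEK kinases MEK1 and MEK2. They are 8 of 19895 entries of the deposited table and 8 of the 12209 entries with a count above 0 in every library, which were the entries tested. Each had its own entry except Araf, whose reads were counted together with those of the neighbouring gene Syn1.

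The organoids were cultures of mouse pancreatic ductal cells. N organoids came from the ducts of wild-type C57Bl/6J mice, and KP organoids from pancreatic tumours of mice in which Pdx1-Cre, active in the developing pancreas, switched on mutant alleles of Trp53 and of an oncogene. Both were treated for a short time with vehicle or with CR-31 (CR1-31-b in the labels), a rocaglate that inhibits the RNA helicase eIF4A, in medium without EGF and N-acetylcysteine. Each of the 4 combinations of organoid and treatment had 3 lysates, 12 in all. Polysome-associated mRNA was taken from the heavier fractions of a sucrose gradient and total mRNA from the same lysate before the gradient, which makes 8 groups and 24 libraries. No source used here says that the replicates came from separate animals, and p-values therefore measure the spread between these lysates, which may be technical.

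RAS proteins are small GTPases that sit at the inner face of the plasma membrane and switch between an inactive GDP-bound and an active GTP-bound state. In the active state they recruit RAF kinases, which phosphorylate MEK1 and MEK2, and these in turn phosphorylate ERK. Pancreatic ductal adenocarcinoma is known for its dependence on this cascade. R-RAS proteins share the effector region of RAS and are best known for their part in cell adhesion and vesicle traffic, and eIF4A unwinds structured 5′ leaders so that ribosomes can scan to the start codon.

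Counted reads per library ranged from 47308461 to 267463046. The member with the fewest reads was Braf, with 516 to 6121 per library, and Map2k2 had the most, with 9908 to 67935, so that counting error is small beside the spread between lysates. The ductal marker Krt19 was at 586 to 1680 RPKM, a read count scaled to transcript length and to the reads of the library, with a median of 1330 RPKM in the N and 1150 RPKM in the KP libraries. Other ductal markers had lower medians in KP than in N, with 120 against 201 RPKM for Epcam, 88.8 against 133 for Cdh1, 9.62 against 24.8 for Sox9, 1420 against 1890 for Krt8 and 1490 against 2040 RPKM for Krt18, and their ranges overlapped. The 5 acinar markers summed to 2.70 to 4.61 RPKM, nearly all from Cela1, and Cpa1 was at 0 in 24 of 24 libraries. The 3 immune markers reached 19.6 RPKM in N and 4.98 RPKM in KP, mostly from Cd68, while the pan-leukocyte gene Ptprc stayed at or below 0.532 RPKM. The endocrine, fibroblast and endothelial markers each summed to at most 0.143 RPKM. Their part in the results was not tested. The 4 sequencing lanes each held libraries of a single organoid type, so organoid type and lane cannot be told apart.

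In GENCODE M21, on the mouse build GRCm38, Hras is at chr7:141189105-141194005 on the minus strand, Map2k2 at chr10:81105915-81133975 on the plus strand, Nras at chr3:103058285-103067914 on the plus strand and Map2k1 at chr9:64185770-64253631 on the minus strand. Rras lies at chr7:45017961-45021647 (plus), Rras2 at chr7:114046782-114117781 (minus), Araf at chrX:20797814-20860519 (plus) and Braf at chr6:39603237-39725463 (minus). Araf and Syn1 are on opposite strands and their gene spans share 9 bases. Syn1 encodes synapsin I, a protein of neuronal synaptic vesicles, and values given for Araf hold for both genes together.

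Hras and Map2k2 had the most similar profile of any pair of members, while their paralogues Nras and Map2k1 had others, and the promoters of these 4 genes are therefore shown. Each line gives the 250 bases before the RefSeq start (GRCm38.p6), 5′ to 3′ on the strand of the gene. The capitals mark GC boxes, found by a search of both strands for the letters GGGCGG, and CCAAT boxes, found in the same way by the letters of their name.
Hras, chr7:141194005-141194254, minus strand: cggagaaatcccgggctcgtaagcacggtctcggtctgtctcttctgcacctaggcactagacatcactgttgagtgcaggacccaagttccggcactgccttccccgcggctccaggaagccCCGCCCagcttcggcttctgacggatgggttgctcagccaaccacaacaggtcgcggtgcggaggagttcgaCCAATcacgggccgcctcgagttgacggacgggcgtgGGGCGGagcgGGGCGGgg
Map2k2, chr10:81105665-81105914, plus strand: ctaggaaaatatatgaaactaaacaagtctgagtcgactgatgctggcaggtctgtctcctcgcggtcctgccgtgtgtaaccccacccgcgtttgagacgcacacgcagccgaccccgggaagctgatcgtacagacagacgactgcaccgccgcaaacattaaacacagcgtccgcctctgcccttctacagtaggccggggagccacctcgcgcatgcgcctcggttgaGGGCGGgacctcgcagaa
Nras, chr3:103058035-103058284, plus strand: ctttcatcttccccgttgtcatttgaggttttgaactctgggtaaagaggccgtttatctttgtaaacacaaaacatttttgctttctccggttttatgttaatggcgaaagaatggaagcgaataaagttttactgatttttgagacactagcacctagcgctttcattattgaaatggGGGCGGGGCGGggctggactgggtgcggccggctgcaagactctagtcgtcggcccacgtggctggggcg
Map2k1, chr9:64253606-64253855, minus strand: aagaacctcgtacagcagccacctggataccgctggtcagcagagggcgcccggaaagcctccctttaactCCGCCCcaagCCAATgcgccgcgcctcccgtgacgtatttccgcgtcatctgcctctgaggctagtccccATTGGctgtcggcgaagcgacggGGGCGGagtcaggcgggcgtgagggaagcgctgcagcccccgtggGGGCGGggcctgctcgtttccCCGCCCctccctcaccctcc

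The Hras window held 3 GC boxes and 1 CCAAT box, the Map2k2 window 1 GC box and 0 CCAAT boxes, the Nras window 2 GC boxes that overlap in 1 base and 0 CCAAT boxes, and the Map2k1 window 4 GC boxes and 2 CCAAT boxes. Of the 32851 RefSeq windows of this length, 32.7% held a GC box and 33.8% a CCAAT box. A TATA box (letters TATAAA), an AP-1 site (letters TGACTCA) or an ETS site (letters CCGGAAG), searched on both strands, was found in 0 of these 4 windows and in 12.4%, 4.46% and 6.91% of all windows. Hras and Map2k1 each had 24 CpG dinucleotides, Map2k2 had 23 and Nras had 14, against a median of 6 over all windows. The window of Nras was 48.4% G and C, below the median of 52.4%, and those of Hras (65.6%), Map2k2 (59.6%) and Map2k1 (68.4%) were above it. These matches describe the sequence and do not show that a factor binds there.

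The members also differed in the length and base composition of their 5′ leaders. The leaders of the 3 Hras transcripts of the entry were 162 to 207 bases long and 80.9 to 82.1% G and C, and the single Map2k2 leader was 232 bases long and 76.3% G and C. The Nras leader, of 173 bases, was 63.0% G and C, that of Map2k1, of 339 bases, 70.8%, and that of Rras2, of 278 bases, 74.1%. Rras had the shortest leader, 55 bases, and Braf the most GC-rich, 85.1% over 168 bases. The Araf leaders were 102 and 137 bases long and both 56.9% G and C. Over the 12164 tested entries with a matching transcript the medians were 163 bases and 64.6%. Braf also had by far the longest mRNA of the 8, 9728 bases, of which 7148 follow the stop codon, against a median of 2852 bases.

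Per length, Rras and Map2k2 were the most abundant members and Braf the least. Averaged over the 24 libraries, Rras reached 103 RPKM, Map2k2 93.7, Hras 69.4, Rras2 59.5, Araf 34.8, Nras 33.7 and Braf 1.38 RPKM, and Map2k1 ranged from 27.9 to 55.2 RPKM. Rras was above 92.8% of the tested entries and Braf above 19.6%.

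The order of levels was not the same in both organoid types. In vehicle-treated N organoids, Rras led the polysome-associated mRNA with 132 ± 14.4 RPKM (SD, n = 3) and its range lay above that of Map2k2, with 77.9 ± 21.9 RPKM. Hras (57.8 ± 18.6), Rras2 (54.0 ± 20.8), Nras (43.4 ± 20.2), Map2k1 (35.7 ± 3.87) and Araf (28.3 ± 6.07 RPKM) followed. Among these, each overlapped the next one named. In vehicle-treated KP organoids Map2k2 led with 147 ± 21.4 RPKM, without overlap with Hras at 101 ± 10.7 RPKM. Hras overlapped Rras (91.9 ± 20.1), and Rras overlapped Rras2 (mean 68.7, range 54.2 to 79.4 RPKM). Araf (38.1 ± 5.78) and Map2k1 (37.5 ± 5.56) overlapped, and Nras, at 28.9 ± 1.67 RPKM, lay below both. Braf was last in all 8 groups, with group means between 0.771 and 2.48 RPKM, and its range never met that of the next gene.

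The first question the design asks is how KP organoids differ from N organoids without the inhibitor. In polysome-associated mRNA, Hras, Map2k2 and the Araf entry rose in KP and Braf fell, at an adjusted p under 0.25 (edgeR's quasi-likelihood test, Benjamini-Hochberg adjustment over all tested entries). That is 3 of 8 members higher and 1 of 8 lower, where 20.4% of all tested entries were called higher and 22.9% lower. The study used this threshold together with limits on effect size and slope, which were not applied here. In total mRNA only Rras was called, and it fell, where 15.2% of the entries were called lower and 28.2% in either direction. Levels below are in CPM, counts divided by the TMM-scaled library size, which compares a gene between libraries and not with another gene. Fewer molecules per cell and fewer cells of a kind cannot be told apart in such bulk libraries.

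Hras, a RAS GTPase anchored to membranes by farnesyl and palmitoyl groups, stood at 246, 209 and 244 CPM in the 3 polysome libraries of vehicle-treated KP organoids and at 153, 123 and 87.6 CPM in those of N organoids. The KP libraries all lay above the N libraries. The difference was 0.94 on the log2 scale (SE 0.22, 95% interval 0.46 to 1.43), or 1.92-fold, with an adjusted p of 0.019 by edgeR. In total mRNA Hras was at 158, 176 and 166 CPM in KP and at 142, 138 and 121 CPM in N. Here too the groups did not overlap, but the difference was 0.32 (SE 0.21) on the log2 scale, with an adjusted p of 0.38 by edgeR.

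Nras, which is also farnesylated and palmitoylated, did not follow. Its polysome-associated mRNA was at 142, 134 and 133 CPM in KP and at 266, 178 and 109 CPM in N organoids. The 3 N lysates ranged more widely than the KP lysates, and the KP values fell inside their range. The log2 difference was -0.43 (SE 0.28, 95% interval -1.03 to 0.16) with an adjusted p of 0.30 by edgeR. In total mRNA Nras was at 131, 140 and 131 CPM in KP and at 220, 144 and 172 CPM in N. All 3 KP libraries were below the N libraries, and the difference of -0.41 (SE 0.26) gave an adjusted p of 0.35 by edgeR.

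Rras, an R-RAS GTPase known for its part in integrin-dependent adhesion, was the member that fell in total mRNA. It was at 55.4, 86.8 and 57.1 CPM in KP and at 117, 114 and 141 CPM in N organoids, without overlap. The log2 difference was -0.90 (SE 0.23, 95% interval -1.40 to -0.40), a fall of 1.87-fold, with an adjusted p of 0.032 by edgeR. In polysome-associated mRNA it was at 84.5, 116 and 75.6 CPM in KP and at 125, 99.2 and 139 CPM in N. These ranges overlapped, and the difference of -0.39 (SE 0.29) was not called, with an adjusted p of 0.36 by edgeR.

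Rras2, also known as TC21, varied more between N lysates than between organoid types. In polysome-associated mRNA it was at 163, 73.3 and 121 CPM in N and at 187, 178 and 131 CPM in KP, and in total mRNA at 178, 89.7 and 110 CPM in N and at 144, 163 and 122 CPM in KP. N replicate 2 was the lowest library in both fractions and the groups overlapped. The log2 differences were 0.47 (SE 0.32) and 0.19 (SE 0.29), with adjusted p of 0.33 and 0.75 by edgeR.

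The Araf entry was at 76.5, 106 and 86.7 CPM in the polysome libraries of KP and at 50.4, 68.4 and 51.3 CPM in those of N organoids, without overlap. The log2 difference was 0.66 (SE 0.23, 95% interval 0.17 to 1.15) with an adjusted p of 0.067 by edgeR. In total mRNA it was at 72.1, 87.5 and 87.5 CPM in KP and at 57.2, 91.6 and 91.0 CPM in N. These groups overlapped and differed by 0.04 (SE 0.21) on the log2 scale.

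Braf, the RAF kinase with the highest basal activity, fell in polysome-associated mRNA, but 1 lysate went against the others. It was at 14.3, 12.2 and 12.8 CPM in KP and at 28.3, 30.8 and 8.85 CPM in N organoids. N replicate 3 lay below all 3 KP libraries, whereas N replicates 1 and 2 lay above them. The log2 difference was -0.79 (SE 0.37, 95% interval -1.60 to 0.03) with an adjusted p of 0.17 by edgeR. Without both lysates of N replicate 3 it was -1.16 (adjusted p = 0.0068), and without vehicle-treated N replicate 2 it was -0.49 (adjusted p = 0.47). The call was lost in 10 of 18 fits that left lysates out. In total mRNA Braf was at 12.5, 7.99 and 10.6 CPM in KP and at 13.6, 7.12 and 10.2 CPM in N, a log2 difference of 0.01 (SE 0.31).

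Map2k2, which encodes MEK2, changed like Hras. Its polysome-associated mRNA was at 363, 428 and 315 CPM in KP and at 229, 148 and 157 CPM in N organoids, without overlap. The log2 difference was 1.05 (SE 0.27, 95% interval 0.47 to 1.63), or 2.07-fold, with an adjusted p of 0.024 by edgeR. In total mRNA it was at 224, 247 and 204 CPM in KP and at 214, 158 and 183 CPM in N. These groups overlapped, and the difference of 0.28 (SE 0.23) gave an adjusted p of 0.49 by edgeR.

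Map2k1, which encodes MEK1, was similar in both organoid types within the spread of the lysates. In polysome-associated mRNA it was at 91.7, 111 and 81.8 CPM in KP and at 85.9, 67.9 and 94.2 CPM in N. The log2 difference was 0.20 (SE 0.21, 95% interval -0.26 to 0.66), with an adjusted p of 0.55 by edgeR. In total mRNA it was at 94.9, 128 and 73.9 CPM in KP and at 85.5, 68.7 and 76.6 CPM in N, a log2 difference of 0.37 (SE 0.23, adjusted p = 0.35).

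**Figure D1:**
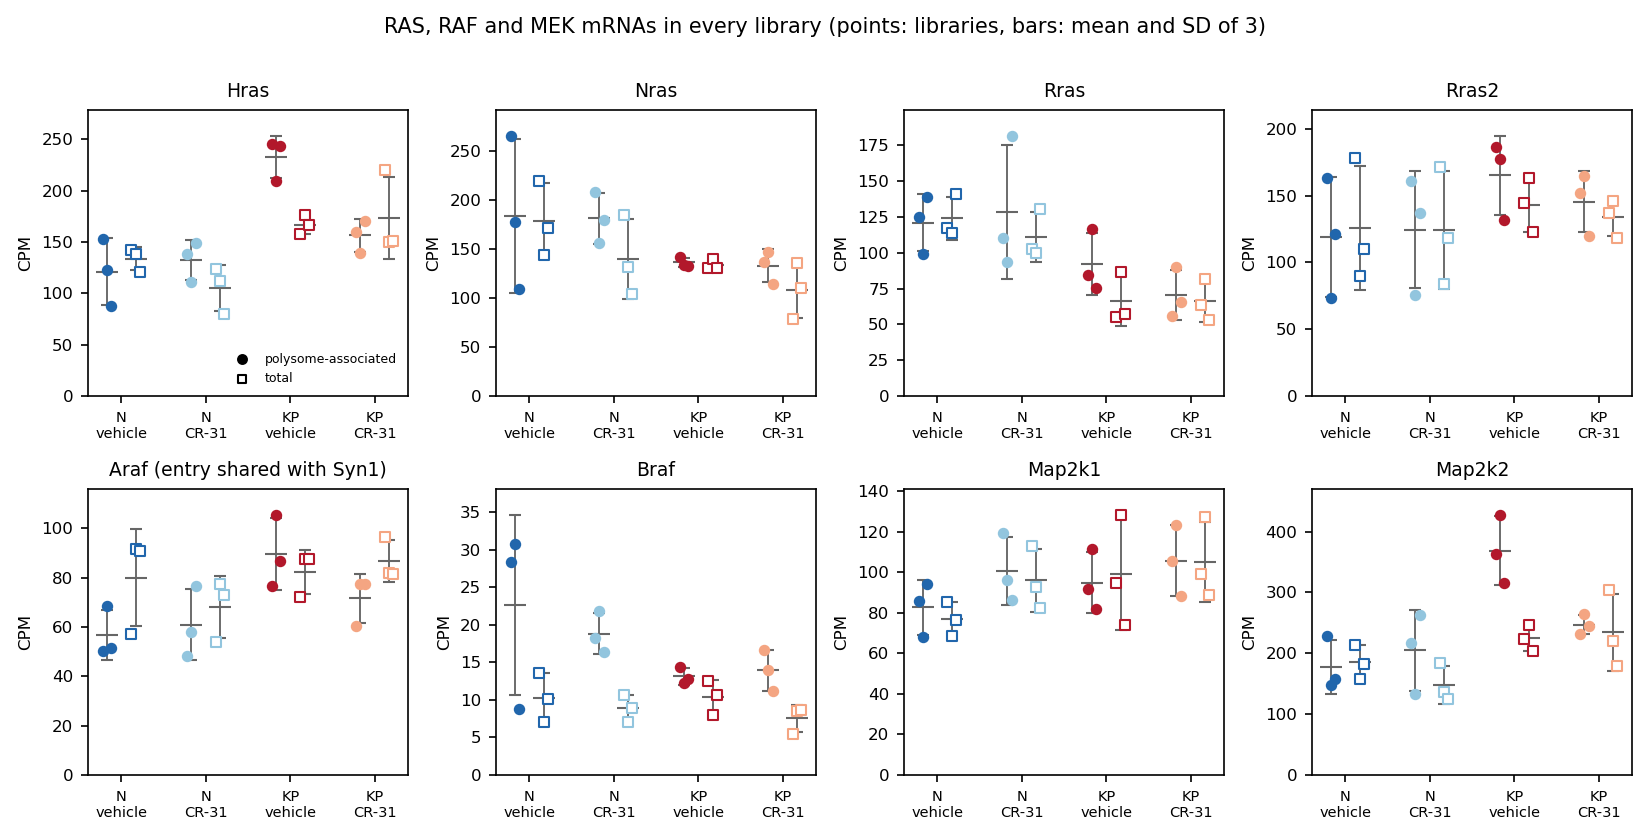
Each panel plots a gene's level in CPM (linear axis from 0) in every library, with filled circles for polysome-associated and open squares for total mRNA, by organoid and treatment. Horizontal marks and bars are the mean and SD of 3 libraries. The 3 filled circles of vehicle-treated KP organoids stand above all other polysome libraries for Hras (209 to 246 CPM) and Map2k2 (315 to 428 CPM), while those of Nras and Map2k1 do not.

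Whether the polysome-associated share of an mRNA differed was tested as translational efficiency, the polysome-associated level relative to the total level of the same lysate, in 1 edgeR model of all 24 libraries. Because each library is scaled to its own reads, a change in polysome loading shared by most mRNAs cannot appear in it. The same limit holds for the comparisons of polysome-associated mRNA. By the test of translational efficiency 0 of 8 members were called between KP and N without the inhibitor, and so were 0% of all 12209 entries, of which 1414 had an unadjusted p under 0.05. DESeq2 called 394 entries, with 0 members among them. The log2 differences were 0.75 (SE 0.27) for Map2k2, 0.63 (SE 0.26) for Hras, 0.56 (SE 0.23) for the Araf entry and 0.49 (SE 0.19) for Rras, and each of these 4 had an adjusted p of 0.42. Those of Rras2 (0.27), Nras (0.02), Map2k1 (-0.16) and Braf (-0.67) had 95% intervals that held 0. A regression of the polysome-associated on the total level, the form of analysis the study used, called Hras (0.92, SE 0.27, adjusted p = 0.18), Map2k2 (0.94, SE 0.29, adjusted p = 0.19) and the Araf entry (0.60, SE 0.22, adjusted p = 0.23) higher in KP, where it called 5.35% of all entries higher. Without both lysates of N replicate 3 the edgeR test called 6 members, with Hras, Rras, Rras2, Map2k2 and the Araf entry higher and Braf lower, where it called 2546 of the 12209 entries higher and 1835 lower. Without its vehicle lysate alone Rras was called higher and Braf lower, among 974 entries called higher and 1262 lower, and without its CR-31 lysate alone Map2k2 was called higher, among 124 higher and 313 lower.

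**Figure D2:**
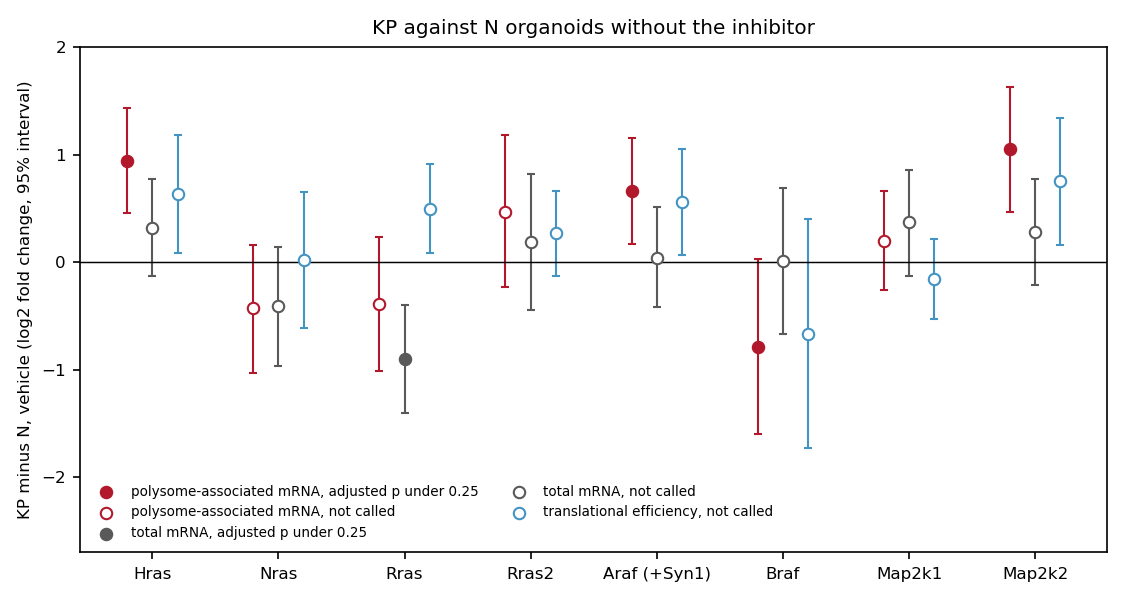
The vertical axis gives the log2 difference of KP minus N organoids, both with vehicle, with its 95% interval, for polysome-associated mRNA (red), total mRNA (grey) and translational efficiency (blue). Filled points passed the adjusted p of 0.25 in edgeR's test and open points did not. Hras (0.94) and Map2k2 (1.05) are highest in polysome-associated mRNA, Rras is lowest in total mRNA (-0.90), and no blue point is filled.

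Within each group, the fold of polysome-associated over total mRNA compares a gene with the average gene of those libraries. In vehicle-treated KP organoids, Map2k2 (log2 0.63, SE 0.19, adjusted p = 0.089), Rras (0.41, SE 0.14, adjusted p = 0.11) and Hras (0.41, SE 0.18, adjusted p = 0.20) were called higher by edgeR, where 14.6% of all entries were called higher and 13.7% lower. The values of single lysates were 0.60, 0.76 and 0.54 for Map2k2, 0.52, 0.38 and 0.32 for Rras and 0.54, 0.21 and 0.47 for Hras, and all 9 were above 0. In vehicle-treated N organoids, Braf (0.95, SE 0.36, adjusted p = 0.18) was called higher and the Araf entry (-0.52, SE 0.16, adjusted p = 0.10) lower, where 8.78% of all entries were called higher and 6.51% lower. The single lysates of Braf gave 1.01, 2.09 and -0.26, so that replicate 3 lay on the other side of 0. Those of Araf gave -0.23, -0.44 and -0.89. Without the vehicle lysate of KP replicate 1 or 2, 0 members were called in KP, and the same fits called 0.541% and 0.852% of all entries. Without that of replicate 3 only Map2k2 was called, where 7.96% of all entries were. The log2 folds in these 3 fits were 0.57 to 0.68 for Map2k2, 0.35 to 0.45 for Rras and 0.34 to 0.50 for Hras. Without the vehicle lysate of N replicate 2, 0 members and 0.352% of all entries were called in N, with Braf at 0.38 and the Araf entry at -0.56. Without that of replicate 1 only the Araf entry was called (-0.67, Braf at 0.92), where 12.8% of all entries were, and without that of replicate 3 only Braf (1.57, the Araf entry at -0.31), where 21.8% were.

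With CR-31, Braf was the member called higher in polysome-associated than in total mRNA in both organoid types. The log2 fold was 1.02 (SE 0.35, adjusted p = 0.14 by edgeR) in N, where 8.10% of all entries were called higher, and 0.86 (SE 0.35, adjusted p = 0.18) in KP, where 13.7% were. Its single lysates gave 0.73, 1.57 and 0.77 in N and 1.61, 0.66 and 0.31 in KP, all above 0, and in vehicle-treated KP organoids its fold was 0.28 and not called. The call in N was lost in 3 of 18 fits that left lysates out, without the CR-31 lysate or both lysates of N replicate 2 (0.75 each) and without both of N replicate 1 (1.19). That in KP was lost in 4 of 18, without the CR-31 lysate or both lysates of KP replicate 1 (0.49 each) or of KP replicate 2 (0.96 each). Hras (-0.17), Rras (0.05) and Map2k2 (0.07) were not called in CR-31-treated KP organoids, nor was the Araf entry (-0.24) in CR-31-treated N organoids.

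The second question is what CR-31 changed. By edgeR's test of the 4 groups, 0 of 8 members were called between CR-31 and vehicle in either organoid type in polysome-associated mRNA, total mRNA or translational efficiency, and 0% of all entries were called in each of these 6 comparisons. The entries with an unadjusted p under 0.05 numbered 422 in KP polysome-associated mRNA and 49 in that of N organoids, 117 and 322 in total mRNA, and 672 and 357 in translational efficiency. DESeq2 called 0 entries in polysome-associated mRNA or translational efficiency, and 8 in total mRNA of KP and 15 in that of N, with 0 members among them. These comparisons share the vehicle-treated libraries with those of KP against N above, so that a high vehicle value enters both.

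In KP organoids CR-31 brought Hras in polysome-associated mRNA from 246, 209 and 244 CPM to 160, 139 and 171 CPM. Map2k2 went from 363, 428 and 315 CPM to 232, 264 and 245 CPM. For both genes every CR-31 library was below every vehicle library, which was so for 9.88% of all tested entries. The log2 differences were -0.57 (SE 0.22, 95% interval -1.06 to -0.09) for Hras and -0.58 (SE 0.26, 95% interval from -1.15 to just below 0) for Map2k2, each with an adjusted p of 1.0 by edgeR.

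The lysates of 1 number moved together across treatments within an organoid type, so a fit with the replicate number as a block was made as well. With this replicate block, Hras (log2 -0.58, SE 0.19, adjusted p = 0.20), Map2k2 (-0.57, SE 0.19, adjusted p = 0.20) and Rras (-0.39, SE 0.16, adjusted p = 0.22) fell in KP polysome-associated mRNA, 3 of 8 members, where 10.3% of all entries were called lower by the same fit. Pair by pair, the log2 changes were -0.62, -0.59 and -0.51 for Hras, -0.64, -0.70 and -0.36 for Map2k2 and -0.59, -0.37 and -0.21 for Rras, and all 9 were below 0. Within the 2 lanes of the KP libraries, Hras differed by -0.66 and -0.51 and Map2k2 by -0.31 and -0.76, while Rras differed by 0.02 and -0.82.

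The other members moved less in KP. The Araf entry changed by -0.34, -0.45 and -0.16 on the log2 scale in the 3 pairs and Rras2 by -0.30, -0.11 and -0.13, and neither was called with the block (adjusted p of 0.31 and 0.46). Map2k1, the paralogue of Map2k2, changed by 0.20, 0.15 and 0.11. Nras gave -0.06, 0.14 and -0.22, and Braf 0.21, 0.20 and -0.20, with pairs on both sides of 0.

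Total mRNA of KP organoids did not move with the polysome-associated mRNA for Hras and Map2k2. Hras was at 220, 150 and 151 CPM with CR-31 and at 158, 176 and 166 CPM with vehicle, a log2 difference of 0.06 (SE 0.21, 95% interval -0.40 to 0.51). Map2k2 was at 304, 220 and 180 CPM with CR-31 and at 224, 247 and 204 CPM with vehicle, also a difference of 0.06 (SE 0.23). Replicate 1 rose and replicates 2 and 3 fell for both genes. In translational efficiency the differences were -0.57 (SE 0.26) for Hras and -0.56 (SE 0.28) for Map2k2, each with an adjusted p of 0.52 by edgeR. The regression with the replicate block called both lower (adjusted p of 0.22 each), where it called 1264 of the 12209 entries lower and 1120 higher.

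In N organoids the polysome-associated level of Hras was 139, 111 and 149 CPM with CR-31 and 153, 123 and 87.6 CPM with vehicle, and that of Map2k2 was 217, 133 and 263 CPM with CR-31 and 229, 148 and 157 CPM with vehicle. The groups overlapped, and the log2 differences were 0.13 (SE 0.22) and 0.20 (SE 0.26). Replicate 3 moved apart from the others. Its pair gave 0.77 for Hras, 0.72 for Nras, 0.39 for Rras, 0.18 for Rras2, 0.58 for the Araf entry, 0.89 for Braf and 0.75 for Map2k2, and -0.13 for Map2k1. The pairs of replicates 1 and 2 gave -0.14 and -0.15 for Hras, -0.07 and -0.15 for Map2k2 and 0.47 and 0.50 for Map2k1.

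The test of the difference itself, the CR-31 effect in KP minus that in N organoids, called 0 of 8 members and 0% of all entries in polysome-associated mRNA, where 272 entries had an unadjusted p under 0.05, and 0 with DESeq2. The log2 difference was -0.71 (SE 0.32, 95% interval -1.39 to -0.02) for Hras and -0.78 (SE 0.37, 95% interval -1.59 to 0.03) for Map2k2, with adjusted p of 1.0 by edgeR. With the replicate block these were -0.73 (SE 0.27) and -0.74 (SE 0.28), with adjusted p of 0.34 each. With the block and without both lysates of N replicate 3, a fit added after the data were seen, Hras, Map2k2, Map2k1 and Braf were called, the first 3 lower in KP and Braf higher, where that fit called 1336 of the 12209 entries higher and 1982 lower. In translational efficiency 0 members were called, and the differences were -1.07 (SE 0.36) for Hras and -1.04 (SE 0.39) for Map2k2, each with an adjusted p of 0.41 by edgeR, where 1330 entries had an unadjusted p under 0.05. DESeq2 called both lower in KP (adjusted p = 0.24 each), among the 1321 entries to which it gave an adjusted p, of which it called 39 higher and 185 lower.

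**Figure D3:**
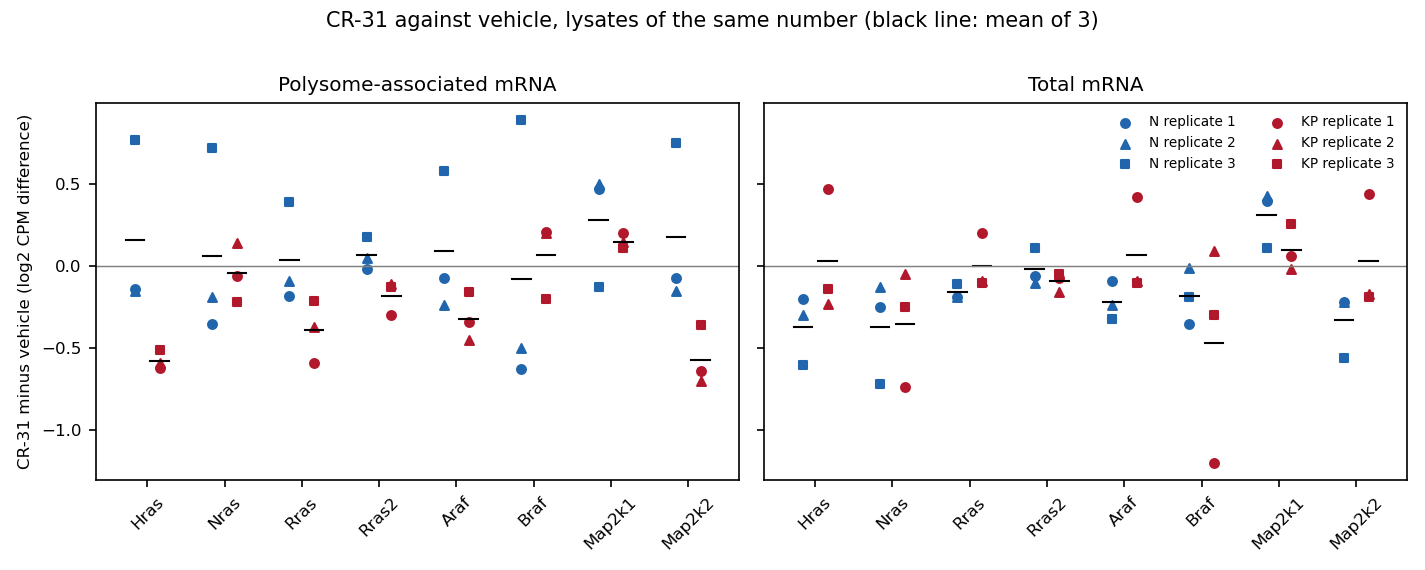
Each point is the log2 CPM of a CR-31 library minus that of the vehicle library of the same organoid type and number, for polysome-associated (left) and total mRNA (right), blue for N and red for KP, with a marker for each replicate and a black line at the mean of 3. On the left, all red points of Hras (-0.62 to -0.51), Map2k2 (-0.70 to -0.36) and Rras lie below 0. Also on the left, the blue squares, N replicate 3, lie above the other N points for every gene but Map2k1.

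After CR-31 the polysome-associated levels of Hras and Map2k2 in KP organoids overlapped those in N organoids. The log2 differences of KP against N with CR-31 were 0.24 (SE 0.22, 95% interval -0.25 to 0.72) for Hras and 0.27 (SE 0.26, 95% interval -0.30 to 0.85) for Map2k2, with adjusted p of 0.58 and 0.60 by edgeR. Rras alone was called, at 56.0, 89.9 and 65.5 CPM in KP and 111, 93.4 and 182 CPM in N (log2 difference -0.87, SE 0.29, adjusted p = 0.095 by edgeR), where 11.1% of all entries were called higher and 13.4% lower. This call was lost without the CR-31 lysate of N replicate 3 (-0.56, with 22.9% of all entries called) or of KP replicate 1 (-0.72, 9.08%), and also without both lysates of KP replicate 1 (-0.72, 7.85%) or replicate 3 (-0.82, 14.4%). Without both lysates of N replicate 3, or without its vehicle lysate alone, Rras, Nras and Braf were called lower, where 18.7% and 17.2% of all entries were called lower. Without the vehicle lysate of N replicate 1, Rras and Nras were called lower, where 14.5% of all entries were.

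In total mRNA of the CR-31 groups, 3 of 8 members were called, where 19.1% of all entries were called higher and 20.8% lower. Hras was higher in KP, at 220, 150 and 151 CPM against 124, 112 and 80.1 CPM, with a log2 difference of 0.72 (SE 0.21, adjusted p = 0.048 by edgeR) and no overlap. Map2k2 was higher too, at 304, 220 and 180 CPM against 183, 136 and 124 CPM, by 0.67 (SE 0.23, adjusted p = 0.080), although KP replicate 3 lay below N replicate 1, and without KP replicate 1 treated with CR-31 the call was lost (0.43, adjusted p = 0.30). Rras was lower, at 63.7, 81.5 and 53.2 CPM against 103, 99.7 and 131 CPM, by a log2 difference of -0.75 (SE 0.23, adjusted p = 0.056) and without overlap. Translational efficiency with CR-31 gave 0 calls among the members and 0% of all entries, 581 of which had an unadjusted p under 0.05, and DESeq2 called 0 entries.

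The share that a gene takes of its paralogue pair is a ratio within a library and needs no scaling between libraries. Hras made up 77.6 ± 1.47% (SD, n = 3) of the summed RPKM of Hras and Nras in the polysome libraries of vehicle-treated KP organoids and 58.1 ± 4.04% in those of N organoids. The KP libraries (76.1 to 79.0%) all lay above the N libraries (53.9 to 62.0%). With CR-31 the share in KP was 70.5 ± 4.81%, each library below the vehicle libraries, and in N it was 59.8 ± 2.69%. In total mRNA of the vehicle groups Hras made up 71.8 ± 0.591% in KP and 60.6 ± 4.95% in N, again without overlap. With CR-31 its share in total mRNA was 76.0 ± 8.20% in KP (69.3 to 85.2%), a range that held the vehicle libraries (71.2 to 72.3%), and 60.7 ± 2.89% in N.

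Among the MEK genes the shift was towards Map2k2. Map2k1 made up 20.4 ± 0.263% of the pair in the polysome libraries of vehicle-treated KP organoids and between 27.2 and 37.4% in those of N organoids. The highest KP library, at 20.6%, lay below the lowest N library. With CR-31 the share in KP was 29.7 ± 2.89% (26.4 to 31.7%), above every vehicle library. In total mRNA of the vehicle groups it was 30.1 ± 3.85% in KP and 29.3 ± 0.864% in N, with overlap. In N organoids the share in total mRNA was 39.4 ± 1.24% with CR-31, and these libraries all lay above those with vehicle (28.4 to 30.1%).

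Rras made up 57.1 ± 4.58% of Rras and Rras2 in the polysome libraries and 52.3 ± 4.08% in the total libraries of vehicle-treated KP organoids, against 71.6 ± 6.04% and 70.7 ± 8.18% in N organoids. The KP libraries were below the N libraries in both fractions. The Araf entry made up between 89.6 and 98.7% of Araf and Braf in all 24 libraries, a share that includes any Syn1 reads.

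**Figure D4:**
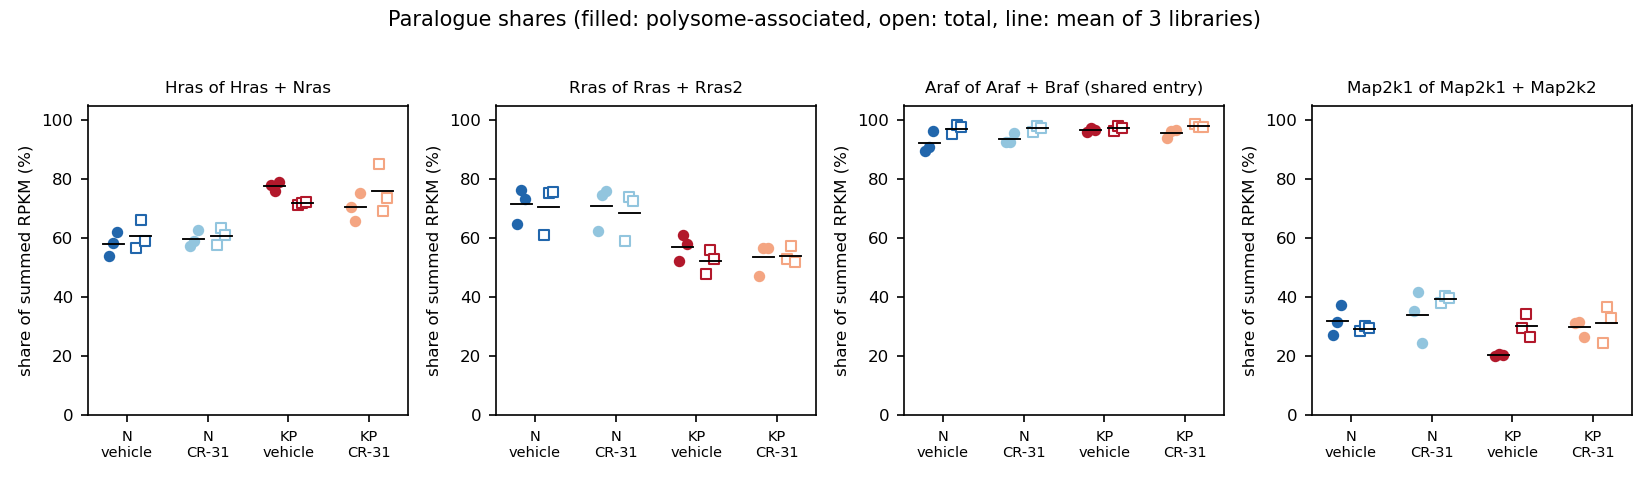
The vertical axis is the share of the first gene in the summed RPKM of a paralogue pair, in percent, in each library by organoid and treatment, with filled circles for polysome-associated and open squares for total mRNA and a line at the mean of 3. Vehicle-treated KP organoids stand highest for Hras (76.1 to 79.0%) and lowest for Map2k1 (20.1 to 20.6%) among the polysome libraries. The open squares of Map2k1 in the vehicle groups overlap.

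Profiles over the 8 groups were compared by the root mean square (RMS) difference of mean log2 CPM, centred on each gene. Of the 28 pairs of members, Hras and Map2k2 were closest, at 0.0894, followed by Rras2 with Araf at 0.149 and Rras2 with Map2k1 at 0.168. The groups share lysates across fractions, so the 8 points are not independent. Of 11450 entries that name a single gene outside the list, the closest to Hras was Cbx7 (0.0459), which encodes a Polycomb chromobox protein, and the closest to Map2k2 was Tomm5 (0.0440), a subunit of the mitochondrial import complex. The closest to Nras was Spast (0.0475), to Rras Hdac11 (0.0379), to Rras2 1110004E09Rik (0.0312), to Araf Vkorc1 (0.0538), to Braf Xrn1 (0.0713) and to Map2k1 Rad23b (0.0380). The median distance to an entry was between 0.325, for Map2k1, and 0.559, for Braf.

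**Figure D5:**
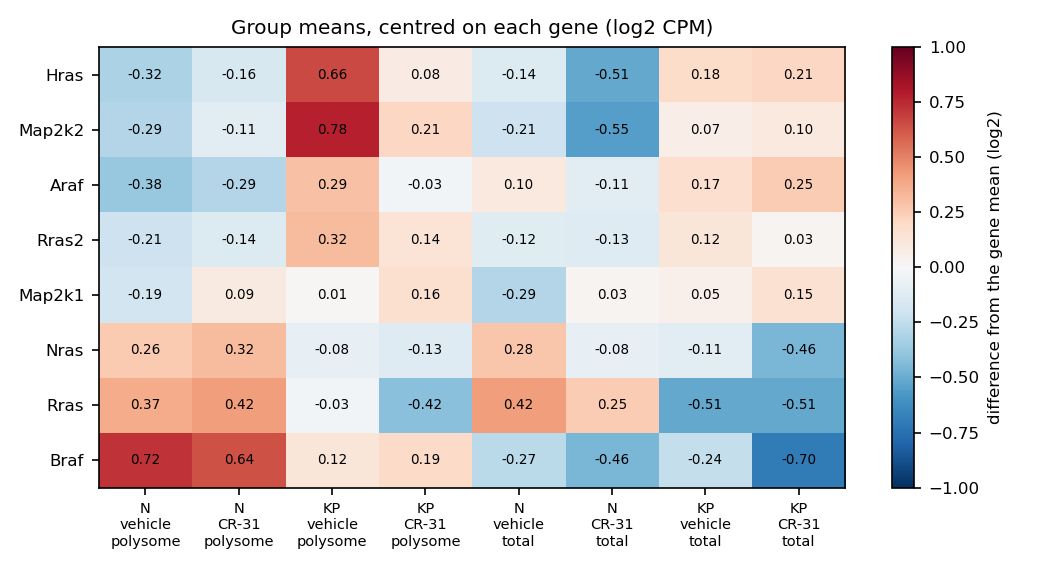
Each cell gives a gene's mean log2 CPM of 3 libraries in a group minus its mean over the 8 groups, red above and blue below. Hras (0.66) and Map2k2 (0.78) peak in the polysome-associated mRNA of vehicle-treated KP organoids, and both are lowest in the total mRNA of CR-31-treated N organoids (-0.51 and -0.55). Rras is above 0 in every N group, and Braf is highest in the 2 polysome groups of N organoids (0.72 and 0.64).

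A list of 57 other genes of the RAS-MAPK pathway was followed beside the members, and 53 of them were tested. In polysome-associated mRNA of vehicle-treated organoids, 15 were called higher in KP (28.3%) and 6 lower (11.3%), against 20.4% and 22.9% of all entries, with a median log2 difference of 0.18 against -0.05 over all entries. By role, 6 of 12 genes of RAS lipid processing were called higher and 0 lower, and so were 3 of 6 genes of ERK and its kinase targets. Of the RAS exchange factors, 1 of 5 was called higher and 2 lower, and of the GTPase-activating proteins 1 of 8 higher and 2 lower. The exchange factor called higher has reads counted together with those of another gene in a shared entry. This holds for 3 of the 57 list genes, and another of these belongs to RAS lipid processing.

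The genes with the largest called rise were Abhd17a, which encodes a depalmitoylase of RAS proteins (log2 1.25, SE 0.27, adjusted p = 0.014 by edgeR), the GTPase-activating protein Rasal1 (1.17, SE 0.52, adjusted p = 0.14) and Rps6ka1, which encodes the ERK-activated kinase RSK1 (1.02, SE 0.21, adjusted p = 0.011). Abhd17a was at 249, 316 and 263 CPM in KP and at 140, 124 and 84.9 CPM in N organoids, without overlap. Among the largest called falls were those of the exchange factor Rasgrp3 (-2.24, SE 0.47), at 0.222 to 0.414 CPM in KP and 0.956 to 1.98 CPM in N, and of the scaffold Iqgap1 (-0.97, SE 0.35), with adjusted p of 0.012 and 0.080.

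In total mRNA 6 of the 53 genes were called higher and 5 lower, 11.3% and 9.43%, against 1583 and 1858 of the 12209 entries tested, with a median log2 difference of 0.06 against -0.03 over all entries. Of the genes of RAS lipid processing 0 of 12 were called higher and 1 lower. The largest called rises were those of Rps6ka3 (1.06, SE 0.35), Rasal1 (0.89, SE 0.44) and Rps6ka1 (0.84, SE 0.26). Among the largest falls were those of Rasgrp3 (-1.88, SE 0.61) and the scaffold Ksr2 (-1.61, SE 0.55), with adjusted p of 0.078 and 0.093 by edgeR. Their levels were low, with Rasgrp3 at 0.0942 to 0.513 CPM in KP and 0.745 to 1.83 CPM in N. Ksr2 was at 0.153 to 0.497 CPM in KP and 0.705 to 0.967 CPM in N. Between CR-31 and vehicle, edgeR's test of the 4 groups called 0 of the 53 in KP or N, in polysome-associated or total mRNA. The same test called 0% of all entries in each of these comparisons.

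Between KP and N organoids that were both treated with CR-31, 4 of the 53 genes were called higher and 4 lower in polysome-associated mRNA (7.55% each), against 11.1% and 13.4% of all entries, with a median log2 difference of -0.07 against -0.02. In total mRNA 10 were called higher (18.9%) and 7 lower (13.2%), against 19.1% and 20.8% of all entries. Of the genes of RAS lipid processing, 1 of 12 was called higher in polysome-associated and 3 of 12 in total mRNA, and 0 were called lower. Of the 6 genes of ERK and its kinase targets, 3 were called higher in polysome-associated and 2 in total mRNA. The 6 RAS-related GTPases went the other way, with 0 called higher and 1 lower in polysome-associated mRNA. In total mRNA 0 of these GTPases were called higher and 4 lower.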

How the data were processed

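Polysome-associated and total mRNA of 12 lysates was measured by RNA-seq in 24 libraries. The authors aligned read pairs with HISAT2, discarded reads with several matches and counted reads on coding RefSeq transcripts. The submitters' notes name SAMtools and the human build hg38 (GRCh38), while the deposited genes are mouse RefSeq genes. The deposited counts are not normalized, and the deposited RPKM values of the same libraries are scaled to transcript length and library reads. Samples were grouped by their labels.

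Only entries whose count exceeded 0 throughout were tested (12209 of 19895, 752 of them listing several symbols). Counts were scaled with TMM and tested in edgeR 4.0.16 (R 4.3.3) by its quasi-likelihood test, per fraction with the 4 groups as the model, and for translational efficiency in a model of all 24 libraries with the lysate as a block. P-values were adjusted by Benjamini-Hochberg over all entries tested, with a threshold of 0.25 after the study but without its limits on effect size and slope. RPKM was used for levels between genes, marker levels and shares of paralogue pairs. DESeq2 1.42.0, a limma 3.58.1 regression and other scalings, filters and left-out lysates were alternatives, and the scripts were tested on simulated data. Replicate numbers came from the labels. Across genes, same-numbered vehicle and CR-31 libraries of a type deviated together (r of 0.358 to 0.911, all 12 pairs above 0.1), so the numbers pair treatments within a type. They do not pair N with KP (r of -0.182 to 0.299). The block for KP against N takes differences between cultures out of the error and gives p-values that are too small for independent cultures.

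The members were given, and the pathway and marker lists were chosen, with earlier results of these data known. The genes named are the 8 members, the 3 called list genes with the largest change in each direction in KP against N with vehicle, and the entry most alike each member. Leaders are from GENCODE M21 and promoters from RefSeq, both on GRCm38, and all 8 members matched. The oncogene allele of the KP mice and some genes of these families and lists are not reported here.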

Additional observations from a re-analysis of the deposited data

Results flagged for a closer look

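Translational efficiency moved in opposite directions under CR-31 in every replicate of the 2 organoid types for 3 members, up in N and down in KP, which was so for 557 of all 12209 entries (4.56%). For Hras the mean log2 change was 0.50 in N organoids, with 0.06, 0.12 and 1.32 in the 3 replicates, and -0.57 in KP organoids, with -1.0, -0.38 and -0.34. For Map2k2 it was 0.49 in N (0.15, 0.04 and 1.26) and -0.56 in KP (-0.99, -0.55 and -0.14). For Rras it was 0.18 in N (0.02, 0.07 and 0.45) and -0.36 in KP (-0.70, -0.30 and -0.07). The largest N value came from replicate 3 for each gene, and the largest fall in KP from replicate 1. In edgeR's test of the difference between the organoid types, none of the 3 passed, with log2 differences of -1.07 (SE 0.36) for Hras, -1.04 (SE 0.39) for Map2k2 and -0.54 (SE 0.28) for Rras and an adjusted p of 0.41 each. DESeq2 called the differences of Hras and Map2k2 (adjusted p = 0.24 each), where it called 39 entries higher and 185 lower of 1321 with an adjusted p, and gave none for Rras. With 3 libraries a group, no search for single outlying libraries was made.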

How the results depend on the processing

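Hras and Map2k2 were called higher in KP polysome-associated mRNA with vehicle under every alternative that could be fitted, with log2 differences of 0.76 to 1.16 and 0.93 to 1.30, and Rras was called lower in total mRNA, at -1.14 to -0.78. Of 406 recounts of called members, 359 stayed within 1.5 times, 25 gave more and 22 fewer, and the cause was not tested. The tally includes comparisons with 0 called members in the main fit, where a recount of 0 counts as unchanged. It therefore does not measure how stable the calls are. With the replicate block, which gives p-values too small for KP against N, the called members went from 4 to 7 in polysome-associated and from 1 to 6 in total mRNA with vehicle, and from 1 to 5 and from 3 to 5 with CR-31, where that fit called 68.3%, 56.2%, 58.1% and 65.1% of all entries. For CR-31 in KP polysome-associated mRNA the replicate block took them from 0 to 3, where it called 20.8% of all entries, and it changed no other call in the CR-31 comparisons or their difference. The replicate block without both lysates of N replicate 3, added after the data were seen, called 8, 5, 7 and 5 members in these comparisons of KP with N, 5 for CR-31 in KP, 2 in N and 4 for the difference, where it called 80.6%, 54.0%, 73.4%, 62.7%, 55.4%, 14.3% and 27.2% of all entries. The regression on total mRNA called 3 members in translational efficiency of KP against N with vehicle and, with the replicate block, 5, and with that block 2 with CR-31 and 2 for CR-31 in KP, where 10.9%, 54.1%, 32.7% and 19.5% of all entries were called. With the lane as a term 0 members were called for CR-31 against vehicle or for the difference, and KP against N could not be fitted, because 0 of 4 lanes held both organoid types. At an adjusted p under 0.05, the called members were 2 in polysome-associated mRNA with vehicle, 0 and 1 with CR-31, and 0 in the ratio of polysome-associated to total mRNA in N or KP, where 15.3%, 5.86%, 10.4%, 3.46% and 1.16% of all entries were called. With entries of 1 symbol only, also added later, which drop Araf, 1 was called in that ratio in N, with 15.3% of all entries.

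Leaving out lysates gave 3 to 5 called members in polysome-associated mRNA with vehicle (24.8 to 52.5% of all entries), 1 to 2 in total mRNA (13.8 to 37.3%), 0 to 6 in translational efficiency (0 to 35.9%), 0 to 3 (7.85 to 34.5%) and 2 to 4 (15.2 to 46.5%) with CR-31, and 0 to 3 in the ratio of polysome-associated to total mRNA in N (0.352 to 36.4%) and in KP (0.221 to 48.1%). The second call in total mRNA was Map2k1 without the vehicle lysate of KP replicate 3 and Rras2 without both lysates of N replicate 1. Shares of paralogue pairs by counts instead of RPKM moved by more than 1 SD in 24 of 32 groups, because counts are not divided by length. Braf had the fewest reads, 516 to 6121 per library.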
